A study of Mus musculus with 12 samples.

Results

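Transcripts that mark basophils and mast cells were followed in cultures of bone marrow monocytes, as a gauge of other cells in the culture. The 9 transcripts were Mcpt8, Prss34, Gata2, Hdc, Fcer1a, Ms4a2, Cpa3, Kit and Cd200r3, out of 53819 genes in the count files. They were chosen by gene symbol, with earlier results of these data known. All 9 had reads, and 6 of them were among the 13151 genes that held enough counts to be tested. Fcer1a, Ms4a2 and Cd200r3 fell below that filter and are given by their counts. A tested gene had to reach 0.365 CPM (counts scaled to library size, here without TMM factors) in at least 3 libraries. Cpa3 reached this in 4 platelet-exposed libraries and 0 others, Mcpt8 in all 6 exposed libraries and 1 other, and Kit in all 6 LPS libraries and 1 other. These 3 were tested only because of the groups in which they were high. Their own calls and the counts over the tested members are therefore given as a description and support nothing.

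All cells were labelled as bone marrow monocytes of wild-type (WT) C57Bl6J mice. The 4 groups of 3 libraries were monocytes exposed to platelets overnight, washed and then given lipopolysaccharide (LPS), a component of bacterial walls that activates innate immune cells; monocytes exposed to platelets overnight; monocytes given LPS only; and untreated monocytes. The labels do not say whether replicates are different animals or cultures, whether the platelet suspension was purified, or how monocytes were selected, so p-values measure the scatter of these libraries only, and that scatter could be technical. Platelet replicate 1 carries "Control" in its description field against platelets in its title and treatment label, and it was kept in the platelet group.

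Total counts were 20060867 to 32155727 per library, so that 3 reads correspond to 0.0853 to 0.163 CPM, which from here on is scaled with TMM factors. Platelet replicate 1 stood apart from its replicates, since its counts gave a chi-square over degrees of freedom of 76.2 and 83.5 when set against theirs. The remaining replicate pairs ranged between 6.75 and 21.6. The 17 monocyte and macrophage markers were all tested, and summed to 42359 to 45253 CPM with platelets plus LPS, 42840 to 45926 CPM with platelets, 39047 to 42977 CPM with LPS and 36775 to 40264 CPM in untreated cells. Lyz2 alone averaged 28247 CPM with LPS to 37813 CPM with platelets, so these sums mostly follow 1 gene. Averaged over the platelet comparisons with and without LPS, edgeR called 7 of the 17 higher and 5 lower, where 12.6% of all genes tested were called. Reads were amplified by PCR without molecular identifiers, so every interval given here covers counting error only.

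Basophils and mast cells are the granulocytes of IgE-driven allergy. They carry the high-affinity IgE receptor, whose alpha chain is encoded by Fcer1a and beta chain by Ms4a2, and when it is crosslinked they release granules of histamine and proteases. In the mouse, Mcpt8 is the protease most often used to mark basophils and Prss34 encodes another granule protease. Cpa3 encodes carboxypeptidase A3 of the same granules. Hdc encodes histidine decarboxylase, which makes histamine and is also made by other myeloid cells. Gata2 is a transcription factor and Kit the receptor for stem cell factor, and blood progenitors express both. Cd200r3 encodes an activating surface receptor.

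Both granule proteases were higher in monocytes exposed to platelets, whether or not LPS followed. Mcpt8 had 71, 74 and 99 reads with platelets, against 4, 14 and 7 reads in untreated cells. It had 42, 78 and 11 reads with platelets plus LPS, against 3, 1 and 4 reads with LPS. In each comparison the lowest exposed library lay above the highest unexposed one, and the library with 11 reads, replicate 3 of platelets plus LPS, was the lowest of the 6 exposed libraries and below the 14 reads of untreated replicate 2. Mcpt8 averaged 2.54 ± 0.255 CPM with platelets and 0.290 ± 0.181 CPM in untreated cells (SD, n = 3 each), 8.67-fold higher (log2 3.12, SE 0.62, adjusted p = 0.00623). It averaged 1.77 ± 1.47 CPM with platelets plus LPS and 0.122 ± 0.0894 CPM with LPS, 14.7-fold higher (log2 3.88, SE 0.75, adjusted p = 0.00458). The size depended on single libraries: the log2 fold change against untreated cells was 3.71 without untreated replicate 2, and that against LPS was 3.05 without replicate 2 of platelets plus LPS and 4.45 without LPS replicate 3. In bulk RNA a change in the number of cells of a type and a change in RNA per cell cannot be told apart.

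Prss34 had 82, 118 and 155 reads with platelets, against 14, 36 and 25 reads in untreated cells. After platelets followed by LPS it had 111, 130 and 73 reads, against 10, 7 and 6 reads with LPS alone. All 6 exposed libraries were above all 6 unexposed ones. Prss34 rose 4.21-fold with platelets against untreated cells (log2 2.07, SE 0.34, adjusted p = 0.00146) and 12.6-fold with platelets plus LPS against LPS (log2 3.65, SE 0.40, adjusted p = 2.87e-05). Mcpt8 and Prss34 passed in all 21 alternative analyses of both comparisons. For Mcpt8 these passes are a description, since it was tested only through its exposed libraries. The interaction of platelets and LPS (log2 platelet effect in LPS cells less that in cells without LPS) was 1.58 for Prss34 (SE 0.53, adjusted p = 0.233) and 0.77 for Mcpt8 (SE 1.02, adjusted p = 0.893), so a difference between the settings did not pass for either gene.

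**Figure D1:**
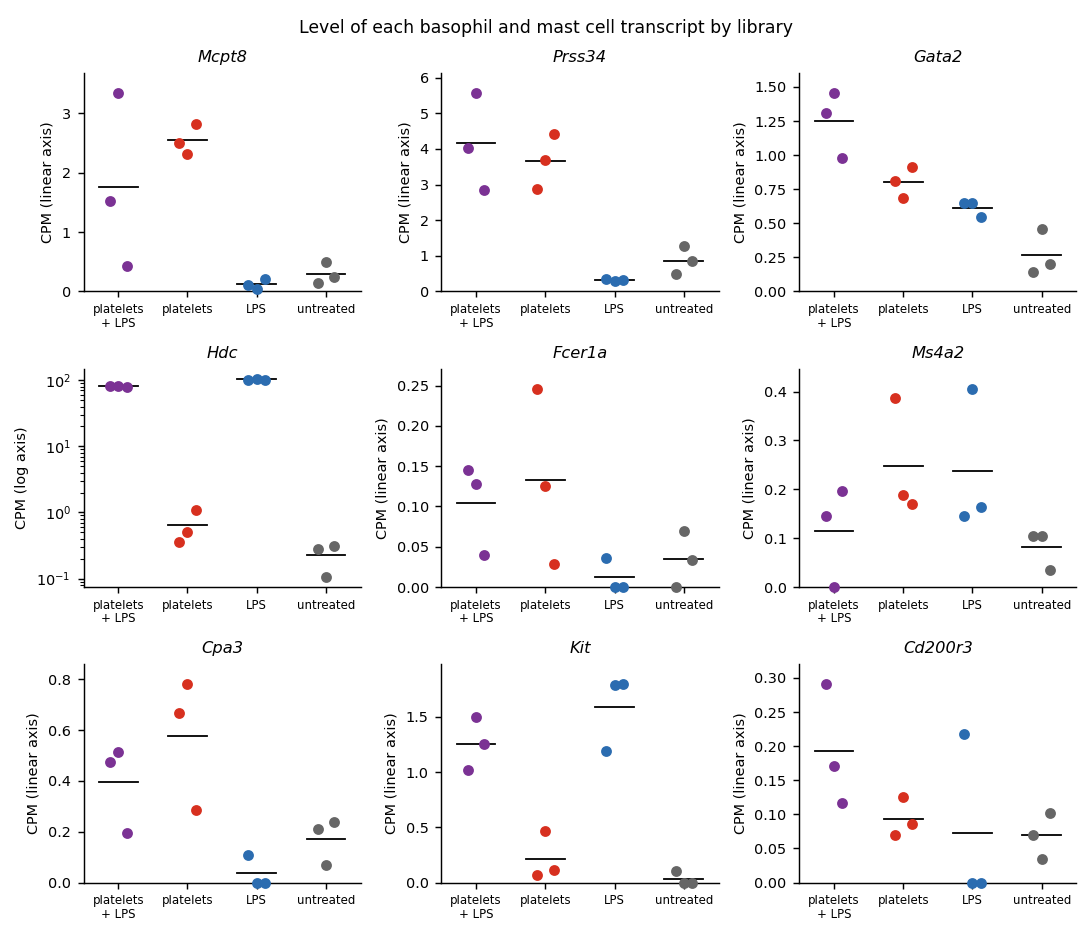
Each panel plots the CPM of a transcript in each library (points) with the group mean (line), on a linear axis except for Hdc, whose axis is logarithmic. Mcpt8 and Prss34 are high in both platelet groups, with Mcpt8 in platelets plus LPS replicate 3 at 0.430 CPM, while Hdc and Kit are high in both LPS groups.

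Cpa3, the third granule enzyme, had 19, 25 and 10 reads with platelets, against 6, 2 and 7 reads in untreated cells. It had 13, 12 and 5 reads with platelets plus LPS, against 3, 0 and 0 reads with LPS. The groups did not overlap within either comparison, but neither passed alone (log2 1.70, SE 0.69, adjusted p = 0.171 with platelets against untreated cells, and adjusted p = 0.0575 with platelets plus LPS against LPS). The ratio of mean CPM computed from summed reads was 9.24 with platelets plus LPS over LPS, with a 95% counting interval of 2.87 to 47.3, since the LPS group held 3 reads. That second comparison passed without platelet replicate 1 (adjusted p = 0.0437) and without LPS replicate 1 (adjusted p = 0.0373). Over the average of both comparisons edgeR called Cpa3 higher (log2 2.41, SE 0.58, adjusted p = 0.0123). The fitted value was 4.08 without LPS replicate 1, which leaves 0 reads in that group, and the stricter filter dropped the gene. Since Cpa3 was tested only through its exposed libraries, this call supports nothing further.

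Gata2 had 23, 22 and 32 reads with platelets, against 4, 13 and 6 reads in untreated cells. In cells given both it had 36, 34 and 25 reads, against 18, 16 and 10 reads with LPS. Every exposed library was above every unexposed one in CPM, though narrowly, with 0.687 CPM in platelet replicate 2 against 0.651 CPM in LPS replicate 1. Gata2 rose 2.98-fold with platelets against untreated cells (log2 1.58, SE 0.45, adjusted p = 0.0499) and its log2 fold change of 1.01 with platelets plus LPS against LPS did not pass (SE 0.42, adjusted p = 0.188). The first call was lost when any library but untreated replicate 2 was left out, with a log2 fold change of 2.19 and an adjusted p of 0.0291 without that library and an adjusted p of 0.0558 to 0.22 without each of the others. Averaged over both comparisons Gata2 rose 2.45-fold (log2 1.29, SE 0.31, adjusted p = 0.0113), and this call held in all 20 alternatives.

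The 3 transcripts below the filter had few reads everywhere. Fcer1a had 7, 4 and 1 reads with platelets, against 0, 2 and 1 reads in untreated cells, and 4, 3 and 1 reads with platelets plus LPS, against 1, 0 and 0 reads with LPS. Its exposed and unexposed libraries differed by 0.23 on the log2(CPM + 0.5) scale, with p = 0.035 by an exact two-sided permutation test over 400 arrangements within LPS strata, which can reach 0.005, and an adjusted p of 0.105 over the 3 genes tested this way. Ms4a2 had 11, 6 and 6 reads with platelets, against 3, 3 and 1 reads in untreated cells. In cells given both it had 4, 0 and 5 reads, against 4, 10 and 3 reads with LPS, so exposed libraries were higher in the setting without LPS only, and the exact permutation p was 0.775. Cd200r3 had 0 to 8 reads in every library (exact permutation p = 0.16, adjusted p = 0.24). By transcript alignment in GENCODE M21, Cd200r3 matched Olfr204 at 96.7% over 301 of 3876 bases. Ms4a2 matched Ms4a4b at 79.5% over 1298 of 2391 bases, and Mcpt8 matched Gm48927 at 79.6% over 142 of 836 bases. Reads could be misassigned where a match is close, as for Cd200r3, which was not tested. No other gene shared exonic bases with a member.

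Over the members, 4 of the 6 tested were higher and 0 lower with platelets against untreated cells, Mcpt8, Prss34, Gata2 and Hdc, where edgeR called 6.49% of all genes tested, 3.63% higher and 2.86% lower. The count was 2, Mcpt8 and Prss34, without any single library except platelet replicate 1, platelet replicate 2 or untreated replicate 2, where it was 3. It was also 2 with library size alone, with a replicate block and with only the 2 groups fitted. All 6 had an unadjusted p under 0.05, all with positive log2 fold changes, and DESeq2 called 4 and limma-voom 3, none of them lower. The median log2 fold change was 1.89 over the 6 members and 0.00 over all genes. With platelets plus LPS against LPS, 2 of 6 were higher and 0 lower, where 7.28% of all genes were called, 4.41% higher, and the median was 2.06 against 0.01 over all genes. DESeq2 and limma-voom each called 3 higher and 1 lower in that comparison, 4 in all, as did edgeR without platelet replicate 1, and 5 members had an unadjusted p under 0.05. In the average platelet effect 4 were higher and 0 lower, Mcpt8, Prss34, Gata2 and Cpa3, where 12.6% of all genes were called, 7.11% higher and 5.51% lower. These counts and medians leave out the 3 members below the filter. They are a description only, since the members were chosen with earlier results of these data known.

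**Figure D2:**
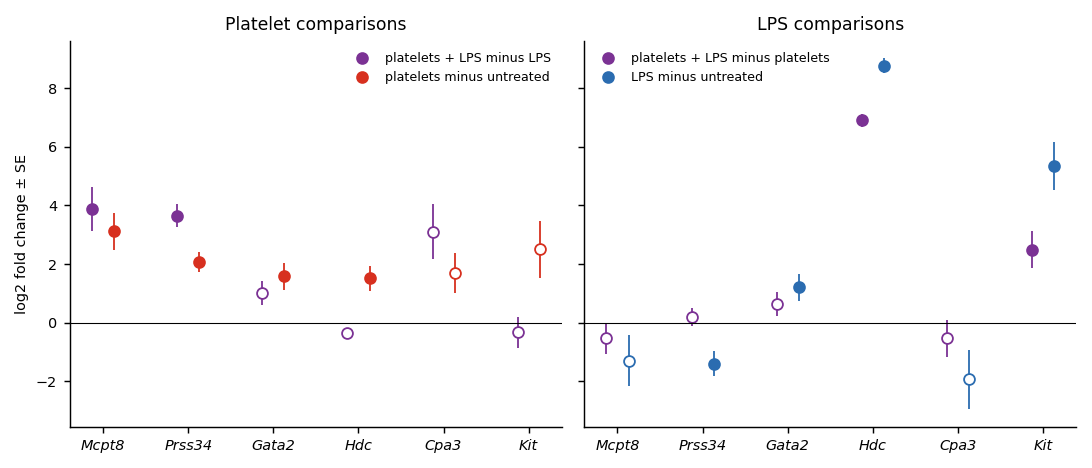
The log2 fold change with its SE is shown for each of the 6 tested members in the platelet comparisons (left) and the LPS comparisons (right), filled where the adjusted p was under 0.05. Mcpt8 and Prss34 are filled in both platelet comparisons and Hdc and Kit in both LPS comparisons; values of Kit against untreated cells and of Cpa3 against LPS rest on 3 reads in the lower group and depend on the prior count of the fit.

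Hdc and Kit followed LPS instead. Hdc had 2821, 2597 and 1881 reads with LPS, against 8, 3 and 9 reads in untreated cells. It had 2216, 1932 and 1992 reads with platelets plus LPS, against 10, 16 and 38 reads with platelets. The LPS libraries were far above the others in both settings. Hdc averaged 103 ± 1.85 CPM with LPS and 0.23 ± 0.109 CPM in untreated cells, 438-fold higher (log2 8.78, SE 0.25, adjusted p = 9.94e-14), and 80.4 ± 2.40 CPM with platelets plus LPS and 0.644 ± 0.385 CPM with platelets, 120-fold higher (log2 6.91, SE 0.22, adjusted p = 2.95e-13). In the same libraries Mcpt8 was at 0.0406 to 0.218 CPM with LPS, and at 0.430 to 3.34 CPM with platelets plus LPS. Without platelet replicate 3 the second Hdc log2 fold change was 7.53.

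Kit had 33, 44 and 33 reads with LPS, against 3, 0 and 0 reads in untreated cells. It had 28, 35 and 32 reads with platelets plus LPS, against 2, 15 and 4 reads with platelets. The groups did not overlap in either comparison. The ratio of mean CPM computed from summed reads was 44.9 with LPS over untreated cells, with a 95% counting interval of 15.0 to 221, and edgeR's adjusted p was 5.24e-05. Kit rose 5.63-fold with platelets plus LPS against platelets (log2 2.49, SE 0.63, adjusted p = 0.00372), and its log2 fold change was 3.68 without platelet replicate 2. Both LPS calls of Kit are a description, since it was tested only through its LPS libraries. Kit reads with platelets against untreated cells overlapped and did not pass (adjusted p = 0.155).

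In the main fit the effect of platelets on Hdc was called different with LPS. Without LPS, Hdc was at 0.352, 0.5 and 1.08 CPM with platelets, against 0.280, 0.105 and 0.306 CPM in untreated cells, 2.84-fold higher (log2 1.51, SE 0.41, adjusted p = 0.0419). With LPS it was at 80.6, 82.7 and 77.9 CPM after platelets, against 102, 105 and 102 CPM without them, a log2 fold change of −0.36 that did not pass (SE 0.15, adjusted p = 0.173). The libraries separated in both settings and in opposite directions. The interaction was −1.87 on the log2 scale (SE 0.44, adjusted p = 0.0464), where 1.58% of all genes were called, 0.859% higher and 0.722% lower, and Hdc was the 1 member called. That call held without platelet replicate 1 (adjusted p = 0.00383) and was lost without any other library (adjusted p = 0.0526 to 0.192), with the value at −1.24 without platelet replicate 3. The rise without LPS was kept without platelet replicates 1 or 2 and lost without each of the other 10 libraries, with an adjusted p of 0.172 and a log2 fold change of 0.88 without platelet replicate 3, 0.194 without untreated replicate 2, 0.0983 without untreated replicate 1 and 0.0558 to 0.0601 without the rest. The lower level with platelets plus LPS passed against LPS when platelet replicate 1 or 3 was left out (adjusted p = 0.0193 and 0.036).

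With LPS in cells without platelets, Prss34 fell and Gata2 rose. Prss34 averaged 0.324 ± 0.0389 CPM with LPS, against 0.867 ± 0.386 CPM in untreated cells. This was a log2 fold change of −1.40 (SE 0.44, adjusted p = 0.0138), a call lost without untreated replicate 2 (adjusted p = 0.0793) and in limma-voom. In platelet-exposed cells it was at 4.15 ± 1.36 CPM with LPS, against 3.66 ± 0.763 CPM without (adjusted p = 0.667). Mcpt8 did not pass in either LPS comparison, with log2 fold changes of −1.30 (SE 0.88, adjusted p = 0.244) against untreated cells and −0.53 (SE 0.53, adjusted p = 0.429) against platelets alone. Cpa3 had 3 reads in all with LPS, against 15 reads in untreated cells, a ratio of 0.245 with a 95% counting interval of 0.0454 to 0.866 that did not pass (adjusted p = 0.128), though it passed without LPS replicate 1 (adjusted p = 0.0284). Gata2 rose 2.30-fold with LPS against untreated cells (log2 1.20, SE 0.47, adjusted p = 0.0437). Of the 12 analyses that left out a library it passed in 2, without replicate 3 of platelets plus LPS or without untreated replicate 2 (log2 1.82), and the others gave an adjusted p of 0.0502 to 0.166. In this comparison 3 of 6 members were higher and 1 lower, where 50.7% of all genes were called, 27.7% higher and 23% lower. Between platelets plus LPS and platelets alone 2 were higher and 0 lower, Hdc and Kit, where 49.4% were called, and the same number had an unadjusted p under 0.05. Both genes were also called by DESeq2 and by limma-voom, with none lower. With such backgrounds the counts say little about the members. Both LPS comparisons and both platelet comparisons draw on the same 12 libraries, and platelets against untreated and LPS against untreated share the untreated ones.

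Set per kilobase of merged exon, the order of the members changed with LPS. With platelets Prss34 (3.0 ± 0.625 CPM per kilobase) and Mcpt8 (2.55 ± 0.256) were the highest and did not differ beyond their spread, and Cpa3 followed at 0.381 ± 0.172. In untreated cells the same 3 led, at 0.711 ± 0.316 for Prss34, 0.290 ± 0.181 for Mcpt8 and 0.114 ± 0.0593 for Cpa3. Prss34 was above Mcpt8 in each untreated library, although the ranges of mean ± SD overlapped, as did those of Mcpt8 and Cpa3. Gata2, Hdc, Fcer1a and Ms4a2 had untreated means between 0.0289 and 0.0494 with overlapping ranges. Hdc led with platelets plus LPS, at 12.6 ± 0.375 CPM per kilobase, ahead of Prss34 at 3.40 ± 1.11 and Mcpt8 at 1.77 ± 1.47, and Cpa3 and Gata2, at 0.260 ± 0.114 and 0.231 ± 0.0453, did not differ beyond their spread. With LPS alone Hdc was at 16.2 ± 0.290 and the next member, Prss34, at 0.266 ± 0.0318.

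The share of Mcpt8 among the reads of the 2 proteases varied between libraries. Mcpt8 made up 46.4%, 38.5% and 39.0% of the reads of both proteases together with platelets, against 22.2%, 28% and 21.9% in untreated cells. The groups did not overlap, and the exact two-sided permutation p of 0.1 is the smallest that 3 against 3 libraries allow. The shares were 27.5%, 37.5% and 13.1% with platelets plus LPS, against 23.1%, 12.5% and 40.0% with LPS, and these overlapped (exact permutation p = 0.9). The LPS shares rest on 13, 8 and 10 reads of both proteases. Shares with platelets plus LPS all lay below those with platelets alone, with means of 26.0% and 41.3% (exact permutation p = 0.1, again the smallest possible). Replicate 3 of platelets plus LPS had 11 Mcpt8 reads of 84, with an exact (Clopper-Pearson) 95% interval of 6.72 to 22.2%, below that of replicate 2, at 30.9 to 44.5% of 208 reads.

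**Figure D3:**
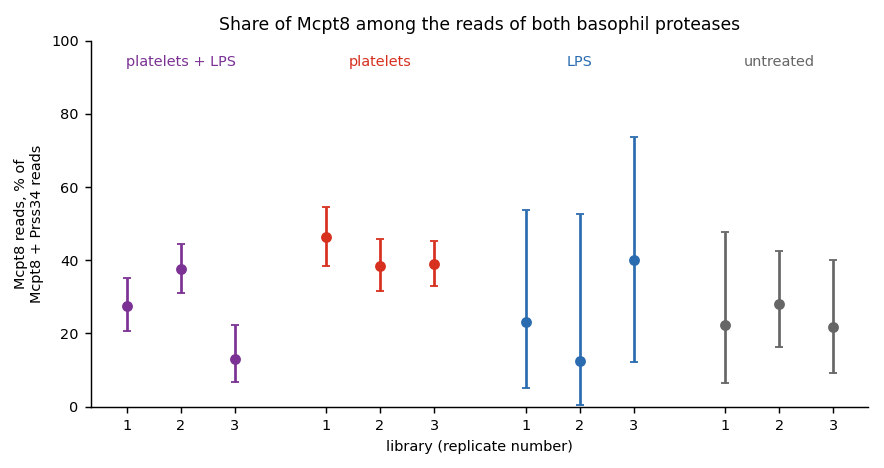
Points show Mcpt8 reads as a percentage of Mcpt8 plus Prss34 reads in each library, with exact 95% binomial intervals. The platelet libraries sit at 38.5 to 46.4%, above the untreated ones at 21.9 to 28%, and platelets plus LPS replicate 3 is low at 13.1%.

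Among the tested members that rose with platelets on average, the RefSeq promoters of Prss34 and Cpa3 hold the letters AGATAA, the core that GATA factors bind, and that of Mcpt8 does not. Hdc is shown as the member with the largest LPS response. The last 100 bases before the transcription start (GRCm38.p6) are given 5′ to 3′ on the gene's strand, with AGATAA in capitals.
Prss34, chr17:25298294-25298393, + strand: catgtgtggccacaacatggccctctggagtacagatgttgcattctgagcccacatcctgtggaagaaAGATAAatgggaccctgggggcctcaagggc
Cpa3, chr3:20242182-20242281, − strand: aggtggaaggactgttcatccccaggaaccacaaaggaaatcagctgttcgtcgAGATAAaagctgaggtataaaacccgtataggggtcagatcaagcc
Mcpt8, chr14:56085198-56085297, − strand: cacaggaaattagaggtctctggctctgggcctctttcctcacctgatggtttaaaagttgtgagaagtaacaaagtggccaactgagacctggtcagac
Hdc, chr2:126618679-126618778, − strand: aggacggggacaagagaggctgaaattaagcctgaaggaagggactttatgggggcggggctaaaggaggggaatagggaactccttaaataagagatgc
The motif begins 31 bases before the start in Prss34 and 46 bases before it in Cpa3. In the 250 bases before the start, AGATAA or its reverse complement TTATCT was found for 5 of the 9 members, Prss34, Cpa3, Fcer1a, Ms4a2 and Cd200r3, all matched by symbol, and for 11.4% of the 27025 genes in the RefSeq table. It was found for neither start of Gata2 or Kit. A match is a description of the letters in this window and not evidence of binding. Other forms of the GATA site were not searched, so a promoter without a match may still hold such a site.

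The other genes of these cells were followed in lists. Some list genes were tested only through the groups in which they were high. List counts and calls are therefore a description and support nothing. Over all genes tested, edgeR called 6.49% with platelets against untreated cells and 7.28% with platelets plus LPS against LPS. Among 22 other granule proteases and mediators, 10 were tested, with 2 higher and 0 lower with platelets against untreated cells and a median log2 fold change of 0.29. With platelets plus LPS against LPS 1 was higher and 0 lower, with a median of 0.25. Rab27b, a small GTPase of granule release that platelets also carry, had 26, 37 and 22 reads with platelets, against 0 reads in each untreated library (adjusted p = 0.000356). It was tested only through its exposed libraries, so this p-value supports nothing. Srgn, the proteoglycan core of granules, rose with platelets against untreated cells (log2 0.75, SE 0.12, adjusted p = 0.00126) and averaged 364 CPM with platelets plus LPS and 365 CPM with LPS (adjusted p = 0.995). Alox5, which starts leukotriene synthesis, fell in the average platelet effect (log2 −0.53, SE 0.14, adjusted p = 0.025). Several proteases of tissue mast cells, Cma1, Mcpt1, Mcpt2, Mcpt4, Mcpt9 and Cma2, had 0 reads in all 12 libraries, as did Gzmb. A count of 0 allows up to 3 reads or 0.163 CPM in the shallowest library. Tpsb2 had 3 reads in platelets plus LPS replicate 2, Tpsab1 1 read in LPS replicate 1 and Tpsg1 1 read in platelet replicate 3. Cpa3, the granule enzyme among the members, had reads in all groups, as given above.

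Signalling proteins below the IgE receptor were followed in the same comparisons, where 6.49% and 7.28% of all genes tested were called. Of 15 tested, 0 were higher and 0 lower with platelets against untreated cells by edgeR, with 3 at an unadjusted p under 0.05 and a median log2 fold change of −0.04. With platelets plus LPS against LPS 2 were higher and 1 lower. Grap2, an adaptor that platelets also hold, averaged 0.933 CPM with platelets plus LPS and 0.121 CPM with LPS (log2 3.13, SE 0.77, adjusted p = 0.0218). It passed the filter only through its exposed libraries, so this call is a description. Syk, the kinase recruited by the receptor, was lower with platelets plus LPS against LPS (log2 −0.44, SE 0.09, adjusted p = 0.00559). Lat2, an adaptor of the same pathway, did not pass in the average platelet effect (log2 0.20, adjusted p = 0.0951).

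Lineage factors and growth receptors gave a mixed picture. Of 14 tested factors, 0 were higher and 1 lower with platelets against untreated cells, and 2 higher and 0 lower with platelets plus LPS against LPS, with medians of −0.03 and 0.03. Runx3, a Runt-family factor, rose with platelets plus LPS against LPS (log2 1.43, SE 0.23, adjusted p = 0.00118), and Cebpb, a myeloid factor, passed in that comparison (log2 0.44, SE 0.13, adjusted p = 0.0473). Mitf, a mast cell factor, did not pass on average (log2 −0.27, adjusted p = 0.0529), and the factor lower with platelets against untreated cells was Runx1. Gata1, which was not tested and is named after its values were seen, had 7, 9 and 3 reads with platelets, against 1, 0 and 0 reads in untreated cells, and 6, 1 and 4 reads with platelets plus LPS, against 0 reads in each LPS library. Of 14 tested receptors and ligands, 3 were higher and 0 lower with platelets against untreated cells (median 0.07), and 1 was higher and 0 lower with platelets plus LPS against LPS (median 0.14). Cd200r4, a relative of Cd200r3, rose in both, to 27.3 CPM with platelets against 15.1 CPM in untreated cells (adjusted p = 0.000225, log2 0.85 with SE 0.11) and to 28.8 CPM with platelets plus LPS against 15.5 CPM with LPS (log2 0.90, SE 0.11, adjusted p = 0.00015). Cd200, a ligand gene of the same list, rose with platelets against untreated cells (log2 1.83, SE 0.32, adjusted p = 0.00248). Tslp, an epithelial cytokine that acts on basophils, fell on average (log2 −1.91, SE 0.47, adjusted p = 0.0146).

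Some platelet and erythroid markers were also higher in both platelet comparisons. Progenitor and dendritic cell markers had more calls against untreated cells than against LPS. The interaction, however, called 0 of the progenitor markers and 1 of the dendritic cell markers, Ccr7. Of 16 tested platelet and megakaryocyte markers, 9 were higher and 1 lower with platelets against untreated cells and 10 and 1 with platelets plus LPS against LPS. Gp9 and Nrgn were among those tested only through exposed libraries, so these counts are a description. Gng11, which platelets carry, averaged 99.4 CPM with platelets and 1.81 CPM in untreated cells (adjusted p = 6.17e-09), and Ctla2a and Clec1b, also in platelets, had log2 fold changes of 6.53 and 8.52. The summed level of the 20 markers, which is led by genes that monocytes also express, was 3761 to 4030 CPM with platelets plus LPS, 3570 to 6420 CPM with platelets, 3912 to 4727 CPM with LPS and 3819 to 4523 CPM in untreated cells. Markers at 0 reads in a whole group included Gp1bb with platelets plus LPS, Gp5 with platelets, Gp1ba, Gp1bb, Gp5 and Nrgn with LPS, and Gp1bb, Gp5, Gp6 and Selp in untreated cells.

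Of 4 tested erythroid markers, 3 were higher with platelets against untreated cells and all 4 with platelets plus LPS against LPS, with 0 lower. Over all genes tested, 3.63% and 4.41% were higher in those comparisons. Hba-a1, Hba-a2 and Hbb-bt were tested only through their exposed libraries. These counts and the adjusted p of Hba-a1 are therefore a description and support nothing. Hba-a1, an alpha globin gene whose reads the counting could split with Hba-a2, averaged 11.5 CPM with platelets and 0.243 CPM in untreated cells (adjusted p = 2.51e-07). The 9 erythroid genes found summed to 7.12 to 9.35 CPM with platelets plus LPS, 11.9 to 24.8 CPM with platelets, 0.0362 to 0.893 CPM with LPS and 1.26 to 2.07 CPM in untreated cells. Those at 0 included Alas2, Epor and Slc4a1 with platelets plus LPS, Epor with platelets, Epor and Slc4a1 with LPS, and Slc4a1 in untreated cells. Of 8 tested progenitor markers, 3 were higher and 0 lower with platelets against untreated cells, Angpt1, Sox4 and Flt3, and edgeR called 0 with platelets plus LPS against LPS, where 3 had an unadjusted p under 0.05. In both comparisons 7 of the 8 log2 fold changes were positive, with medians of 0.87 and 1.01. Angpt1 was tested only through its exposed libraries. The 15 progenitor genes summed to 10.3 to 17.4 CPM with platelets plus LPS, 24.1 to 27.4 CPM with platelets, 7.71 to 9.20 CPM with LPS and 15.9 to 17.0 CPM in untreated cells. Mecom was at 0 in every library, as were Hoxa9 with platelets plus LPS, Mpo with platelets, Hoxa9, Elane and Muc13 with LPS, and Hoxa9, Angpt1 and Muc13 in untreated cells. Of 11 tested dendritic cell markers, 5 were higher with platelets against untreated cells and 1 with platelets plus LPS against LPS, and Cd24a, which many blood cells carry, was among both. The 12 dendritic cell genes summed to 549 to 608 CPM with platelets plus LPS, 202 to 277 CPM with platelets, 382 to 463 CPM with LPS and 132 to 149 CPM in untreated cells, with none at 0. The part of these markers in the rise of the proteases was not tested.

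Eosinophil, neutrophil, B cell and T and NK cell markers were followed too. The 2 eosinophil markers tested, Ccr3 and Ear2, did not pass in either platelet comparison or their average, where 1 had an unadjusted p under 0.05 with platelets plus LPS against LPS, and the 10 eosinophil genes summed to 9.29 to 10.4 CPM with platelets plus LPS, 2.95 to 4.59 CPM with platelets, 12.7 to 14.0 CPM with LPS and 3.29 to 4.93 CPM in untreated cells, with Ear1, Ear6 and Il5ra at 0 throughout. Of 10 neutrophil markers 1 was higher, Mmp9, and 1 lower, Mmp8, with platelets against untreated cells, where 6.49% of all genes tested were called. With platelets plus LPS against LPS Mmp8 was lower and 0 were higher, and on average S100a8 was higher and Mmp8 lower. Of 3 B cell and 2 T and NK cell markers tested, edgeR called 0 with platelets against untreated cells, with 1 of each list at an unadjusted p under 0.05. Ighm, a B cell marker, was called lower with platelets plus LPS against LPS and on average. The T and NK cell markers had 0 calls in both.

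**Figure D4:**
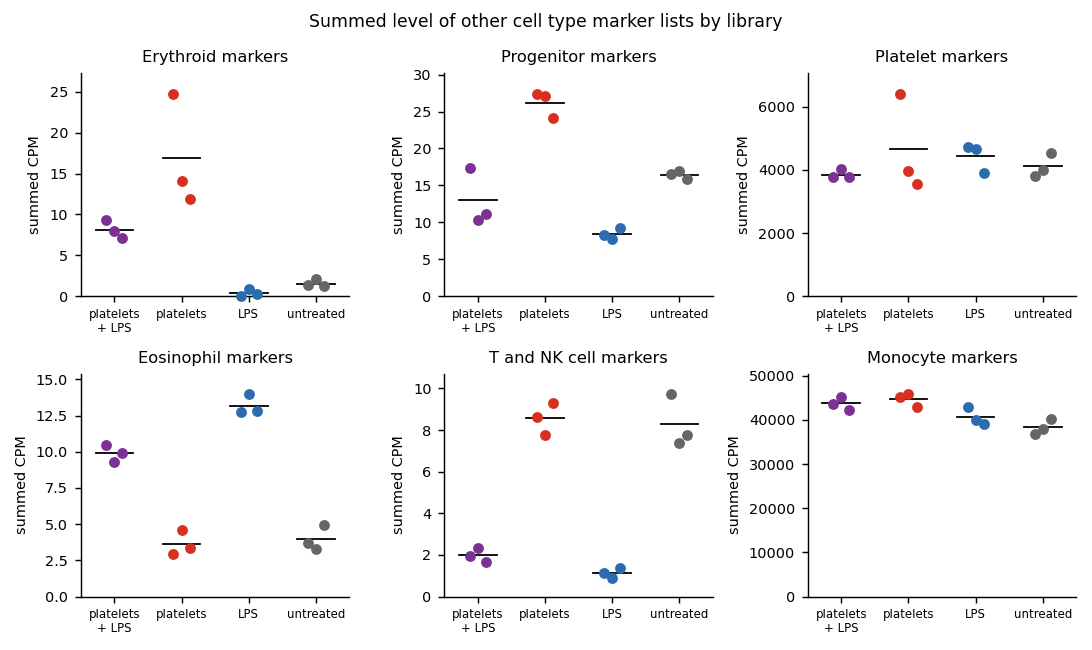
Points are the summed CPM of all genes of a marker list in each library, with group means as lines, on linear axes from 0. Erythroid and progenitor sums are highest with platelets, at 11.9 to 24.8 and 24.1 to 27.4 CPM, and the platelet list sum is highest in platelet replicate 1, at 6420 CPM.

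Platelet replicate 1, with the highest platelet marker and erythroid sums of its group, had the lowest Prss34, at 2.88 CPM beside 3.69 and 4.41 CPM, while its Mcpt8 of 2.50 CPM lay between 2.31 and 2.82 CPM. Among libraries with platelets plus LPS, replicate 2 had the highest Mcpt8 and Prss34, at 3.34 and 5.56 CPM. Its platelet marker sum was also the highest, at 4030 CPM, but that sum is led by genes that monocytes also express. The erythroid sum was highest in replicate 1, at 9.35 CPM beside 7.96 CPM in replicate 2. In raw reads replicate 1 was also highest for Gng11 (1968, 1496 and 1486 in order of replicate), Ctla2a (2629, 2085 and 1895) and Clec1b (394, 255 and 299). A link between platelet content and the proteases was not tested. Without platelet replicate 1 Mcpt8 and Prss34 still passed against untreated cells. The genes whose log2(CPM + 0.5) over the 12 libraries was most like that of Mcpt8, among 10436 other genes of at least 1 CPM, were Coq2, an enzyme of ubiquinone synthesis (Pearson's r = 0.94), Syngr2, a vesicle protein (0.93), Ctsk, a lysosomal protease (0.91), Arg1, which breaks down arginine (0.90), and Nrgn, a platelet marker (0.90). These r values are descriptions over libraries that fall into exposed and unexposed groups, and in the same order they were 0.77, 0.81, 0.67, 0.74 and 0.58 among the 6 exposed libraries and 0.73, 0.29, 0.53, 0.40 and 0.15 among the 6 unexposed ones. Mcpt8 and Prss34 themselves had r = 0.92 over 12 libraries, 0.64 over the 6 exposed and 0.88 over the 6 unexposed ones, and Hdc and Kit had 0.96, 0.92 and 0.99.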

How the data were processed

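RNA sequencing was carried out on 12 libraries of mouse bone marrow monocytes in 4 groups of 3. Per the labels' protocols, the kits were RNeasy Plus Micro for RNA, SMARTer Ultra Low Input v4 for cDNA and Nextera XT for sequencing. Tools listed, per the submitters' processing notes and without roles, are Salmon 1.5.2, featureCounts, Subread 2.0.1, STAR 2.7.9a and fastp 0.23.1. The deposited files hold raw whole-number counts per gene for 53819 genes, with build, annotation and strandedness of counting not given in the sources.

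The 13151 genes that passed filterByExpr were fitted in edgeR 4.0.16 (R 4.3.3) with TMM scaling and the quasi-likelihood test, in 1 model of the 4 group means over 12 libraries (8 residual degrees of freedom). The two-sided p-values received Benjamini-Hochberg adjustment over all genes tested, and the threshold was 0.05. Standard errors (SE) come from the F statistic. The 6 contrasts were the 4 comparisons of pairs of groups, their average platelet effect and the interaction. The method was tested on simulated counts. Members below the filter were compared by an exact permutation test within LPS strata. Alternatives were other scalings and filters, DESeq2 1.42.0, limma-voom (limma 3.58.1), a replicate block, leaving out each library with the genes tested kept, and fits of the 2 groups alone.

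The members and gene lists were chosen with earlier results of these data known. Genes named beside the members are up to 3 of each list with the smallest p in the average platelet effect, and the 5 genes most correlated with Mcpt8. Any other is named after its values were seen. Promoter windows are RefSeq sequences of GRCm38.p6 matched by symbol, and exon lengths are from GENCODE M21. Neither is known to be the annotation behind the counts. Some marker genes are not reported here by name.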

Additional observations from a re-analysis of the deposited data

Results flagged for a closer look

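Hdc, the histamine-forming enzyme, was called in the main fit for a different response to platelets with and without LPS. The interaction, as the log2 platelet effect in LPS cells less that in cells without LPS, was −1.87 (SE 0.44, edgeR adjusted p = 0.0464), an interaction across all 12 libraries. All 3 libraries lay above untreated cells after platelets alone, and all 3 lay below LPS cells after platelets plus LPS. Without LPS the separation was narrow, with 10, 16 and 38 reads against 8, 3 and 9 reads. The lower level with LPS did not pass (edgeR adjusted p = 0.173). Of 20 alternative analyses of the interaction 6 passed, and the adjusted p over all 20 was 5.85e-05 to 0.192. The call was lost when any library but platelet replicate 1 was left out.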

How the results depend on the processing

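Mcpt8 and Prss34 passed in all 21 alternatives of both platelet comparisons, with adjusted p up to 0.0417, where Mcpt8 was tested only through its exposed libraries. The members called with platelets against untreated cells numbered 4, and 2 with library size alone, with the replicate block and with only the 2 groups compared, and 2 to 3 when 1 library was left out. With platelets plus LPS against LPS they numbered 2, and 4 in DESeq2 and in limma-voom, and 2 to 4 when 1 library was left out. The interaction called 1, and 0 with library size alone, in limma-voom and with the replicate block, and 0 to 1 when 1 library was left out, while 3 had an unadjusted p under 0.05 in each of those 3 settings. Replicate numbers did not pair the libraries: 2 of 18 same-numbered pairs correlated over 0.1, and 2 of 12 libraries correlated best with their own number. Directions reversed only for values that had not passed: Prss34 with platelets plus LPS against platelets was −0.061 with upper-quartile factors and −0.19 with library size alone, and −0.088 to 0.39 when 1 library was left out (below 0 without PLT_LPS replicate 2 or PLT replicate 1), and the Mcpt8 interaction was −0.066 to 1.33 when 1 library was left out (below 0 without PLT_LPS replicate 2). Scaling moved the median of all genes with LPS against untreated cells to −0.19 with upper-quartile factors and −0.37 with library size alone. The stricter filter removed Cpa3, which gave no value there. Depth limits Fcer1a, Ms4a2 and Cd200r3, which had at most 11 reads in a library. The cause of these changes was not tested.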
